A study of Mus musculus with 8 samples.

Results

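The 36 genes described here encode the proteins that license DNA replication origins and build the replication fork. They are 6 subunits of the origin recognition complex, the 6 MCM helicase subunits Mcm2 to Mcm7 with Mcm8 and Mcm10, the loading factors Cdc6 and Cdt1 and the inhibitor Gmnn, the activators Cdc45, Cdc7 and Dbf4, 6 primase and polymerase subunits, the clamp Pcna with its 5 loader subunits Rfc1 to Rfc5, Rpa1 and Rpa2, and Fen1 and Lig1. Probe sets were taken where the array's annotation, with symbols updated through Entrez identifiers, gave exactly 1 symbol and that symbol was one of the 36. This rule found 80 of the 45101 probe sets, and all 36 genes had at least 1. A further probe set that carries a member's symbol among several was left out. The samples were mouse germinal vesicle (GV) stage oocytes, which are immature oocytes with an intact nucleus. One group held 4 samples of untreated GV oocytes and the other held 4 samples of GV oocytes kept 48 h in milrinone, which inhibits the phosphodiesterase encoded by Pde3a and so holds the oocyte at this stage. Each sample's total RNA was labelled with biotin, and 15 µg of cRNA went onto 1 single-colour Affymetrix array. No sample was labelled as cultured without the drug, so drug, culture and elapsed time cannot be told apart. The labels give no strain, age or number of oocytes, and do not say whether the replicates came from separate animals, so a p-value covers no more than the spread among these 8 samples, part or all of which may be technical.

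Origins are licensed when the origin recognition complex, with Cdc6 and Cdt1, loads the ring of Mcm2 to Mcm7 onto DNA, and geminin, the product of Gmnn, blocks Cdt1. The kinase Cdc7 with its activating subunit Dbf4, and the helicase cofactor Cdc45, then turn the loaded ring into a moving helicase, behind which primase and the polymerases copy the strands. A GV oocyte is arrested in meiotic prophase and does not replicate its DNA, but it stores messages that are used after meiosis and fertilisation, when the embryo's first rounds of replication start before its own genome supplies much RNA.

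In cycling cells, many of these genes are known targets of E2F factors, so the promoters of the members were searched for 4 E2F words, TTTCCCGC, TTTCGCGC, TTTGCCGC and TTTGGCGC, on both strands. The RefSeq promoter table (build GRCm38.p6, 250 bases before to 50 bases after a start) held 39 promoters of 31 members. It held none for Gmnn, Mcm4, Pole, Prim2 and Rfc2. The word lay wholly upstream of the start in 8 members. Stretches of 7 of them are shown on the gene's own strand, with the E2F word in capitals. The 7 are 2 subunits of the origin recognition complex, the loading factor Cdc6, 3 subunits of the MCM ring and the catalytic subunit of polymerase alpha. Not shown are the clamp loader subunit Rfc3, with a word 10 bases before the start, and a second stretch of Mcm6, with a word 47 bases before it. None of the 3 firing factors Cdc45, Cdc7 and Dbf4 had the word in a promoter of the table.
Orc1, chr4:108579402-108579453, plus strand: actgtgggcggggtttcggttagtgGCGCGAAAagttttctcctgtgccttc
Orc3, chr4:34614951-34615008, minus strand: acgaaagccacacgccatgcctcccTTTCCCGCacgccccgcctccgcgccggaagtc
Cdc6, chr11:98907988-98908045, plus strand: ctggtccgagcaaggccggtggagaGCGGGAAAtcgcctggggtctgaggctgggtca
Mcm5, chr8:75109331-75109392, plus strand: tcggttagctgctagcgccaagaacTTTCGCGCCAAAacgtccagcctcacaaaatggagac
Mcm6, chr1:128359779-128359840, minus strand: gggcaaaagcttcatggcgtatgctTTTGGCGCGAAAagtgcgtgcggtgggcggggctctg
Mcm7, chr5:138172016-138172073, minus strand: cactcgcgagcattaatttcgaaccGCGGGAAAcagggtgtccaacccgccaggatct
Pola1, chrX:93632261-93632318, minus strand: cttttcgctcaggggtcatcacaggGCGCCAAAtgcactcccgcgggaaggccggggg

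The word lies 27 bases before the start in Orc1, 41 in Orc3, 110 in this stretch of Mcm6, 138 in Cdc6 and in Pola1, 153 in Mcm5 and 165 in Mcm7. In Mcm5 and Mcm6 the capitals hold 2 overlapping words, 1 on each strand. A word occurred in 13 of the 39 member promoters (33.3%), those of Orc1, Orc3, Mcm3, Mcm5, Mcm6, Mcm7, Mcm8, Cdc6, Cdt1, Pola1, Pold1, Rfc3 and Lig1. It occurred in 744 of all 32851 promoters in the table (2.26%) and in 607 of the 21262 of protein-coding genes (2.85%). The members' promoters were also richer in G and C, with a median of 62.3% against 52.7% in all promoters and 56.3% in those of protein-coding genes, and its part in the word's share was not tested. The CCAAT word, on either strand, was in 21 of the 39 promoters (53.8%) against 37.4% of all. The word TTTGAA, the core of the cell cycle genes homology region, was in 15.4% against 17.9%, and TATAAA in 5.13% against 13.6%. A match is a description of the letters and not of a bound site, and CCAAT and the other words may overlap an E2F word.

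Messages of all 36 genes were detected in the untreated oocyte samples and in those kept in milrinone, as far as a listed value shows. Listed means here that the deposited table holds a value for the probe set on that array, and an empty cell gives no bound on its signal. Each of the 36 genes had at least 1 probe set listed on all 8 arrays, whereas 8588 of the 18193 genes with a probe set of their own did (47.2%). By probe set, 65 of the 80 were listed on all 8 arrays (81.25%), against 32.0% of the 45037 probe sets that are not controls. The number of member probe sets listed was 70, 68, 67 and 66 on untreated 1 to 4 and 68, 69, 66 and 69 on milrinone 1 to 4, so the counts of the groups overlapped. Among the other 15 probe sets, 9 were listed on none of the arrays, all of them second or further probe sets of Orc1, Orc3, Mcm10, Cdt1, Cdc45, Pola1, Pola2 and Prim2, with 2 for Pola2. The other 6 were listed on some arrays, and 4 of these, second or further probe sets of Mcm3, Mcm5, Mcm6 and Dbf4, were listed on too few (5 arrays or fewer) to be tested. No gene was listed in 1 group and missing from the other.

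The samples held oocyte RNA by their markers, since 15 of 15 probe sets of 13 oocyte genes, among them Gdf9, Zp3 and Mos, were listed on all 8 arrays. Markers of follicle cells were also listed, and their number and level moved with the groups. Of 35 probe sets of granulosa, cumulus and theca markers, 30, 27, 24 and 22 were listed on untreated 1 to 4 and 15, 17, 12 and 9 on milrinone 1 to 4. Their summed intensity on untreated arrays was 20850.3 to 91136, and that on milrinone arrays was 2752 to 3816, and Amh was listed on no array. Of 14 probe sets of blood, stromal and endothelial markers, 8 to 11 were listed on an untreated array and 3 or 4 on a milrinone array. Untreated 1 was unlike the rest: its correlation with the others had a median of 0.930, while that of each other array was 0.966 to 0.980. Dividing the signal of the 3′ control probe set of Actb by that of its 5′ one gave 6.87 to 13.1 for untreated arrays and 11.6 to 20.4 for milrinone arrays, and for Gapdh 6.23 to 7.68 and 6.09 to 8.25. The part of follicle cell RNA and of RNA quality in the members' values was not tested.

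No difference of a replication message between the groups passed adjustment, which with 4 arrays a group does not show that the levels were equal. Of the 67 member probe sets that could be tested, 0 passed an adjusted p of 0.05 in limma, against 19 of all 16288 tested (0.117%), and the smallest adjusted p among them was 0.412, for Prim1. At an unadjusted limma p of 0.05, 4 of 67 passed, namely Prim1, Cdc45 and Mcm8 with higher and Pola2 with lower means after milrinone, a share of 5.97% against 9.63% of all tested probe sets. The values of the groups did not overlap, with milrinone higher, in 5 of 67 (1 probe set each of Prim1, Cdc45, Mcm5, Prim2 and Orc4) against 5.06% of all. They did not overlap with milrinone lower in 1 of 67, a probe set of Rfc4, against 2.74%. By probe set, the members' share at the unadjusted threshold lay below that of the whole table, and the counts of groups that did not overlap lay near its shares. By gene, with the brightest tested probe set of each, 4 of 36 (11.1%) passed the unadjusted limma threshold, against 9.82% of all 9454 tested genes. The groups did not overlap, with milrinone higher, in 4 of 36 genes (11.1%), a larger share than the 488 of 9454 over all tested genes. With milrinone lower, this was 0 of 36 against 272 of 9454.

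All differences are milrinone minus untreated on the log2(intensity + 16) scale, on which the added constant shrinks the differences of dim probe sets. With the brightest tested probe set standing for each gene, the 36 differences ran from -0.36 to 0.45 with a median of 0.13, beside a median of 0.06 over all tested probe sets. They lay above 0 in 31 of 36 genes (86.1%), against 62.9% of all tested genes. By probe set they did in 50 of the 67 (74.6%), against 62.0% of all tested. The 95% interval of the difference lay within 0.5 of 0 on both sides in 40 of the 67 probe sets (59.7%), against 40.4% of all. By gene it did in 29 of the 36 (80.6%), against 43.4% of all tested genes. These shares depend on the standard error, whose median was 0.13 over the 36 genes and 0.17 over all tested genes. They were not matched for it or for brightness, so they do not show that the members were steadier than other genes. Among the other replication genes described below, with a median standard error of 0.15, the share was 56.8%. With each array centred on ribosomal protein genes instead of the deposited scaling, 35 of 36 genes and 85.5% of all tested probe sets lay above 0, and the medians were 0.34 for the members and 0.28 for all. Without untreated 1, 28 of 36 genes and 55.4% of all tested probe sets lay above 0, and the medians were 0.07 for the members and 0.03 for all. In such bulk samples fewer cells of a type and less RNA per cell cannot be told apart, and the equal mass of cRNA makes each level relative to the rest of its sample.

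**Figure D1:**
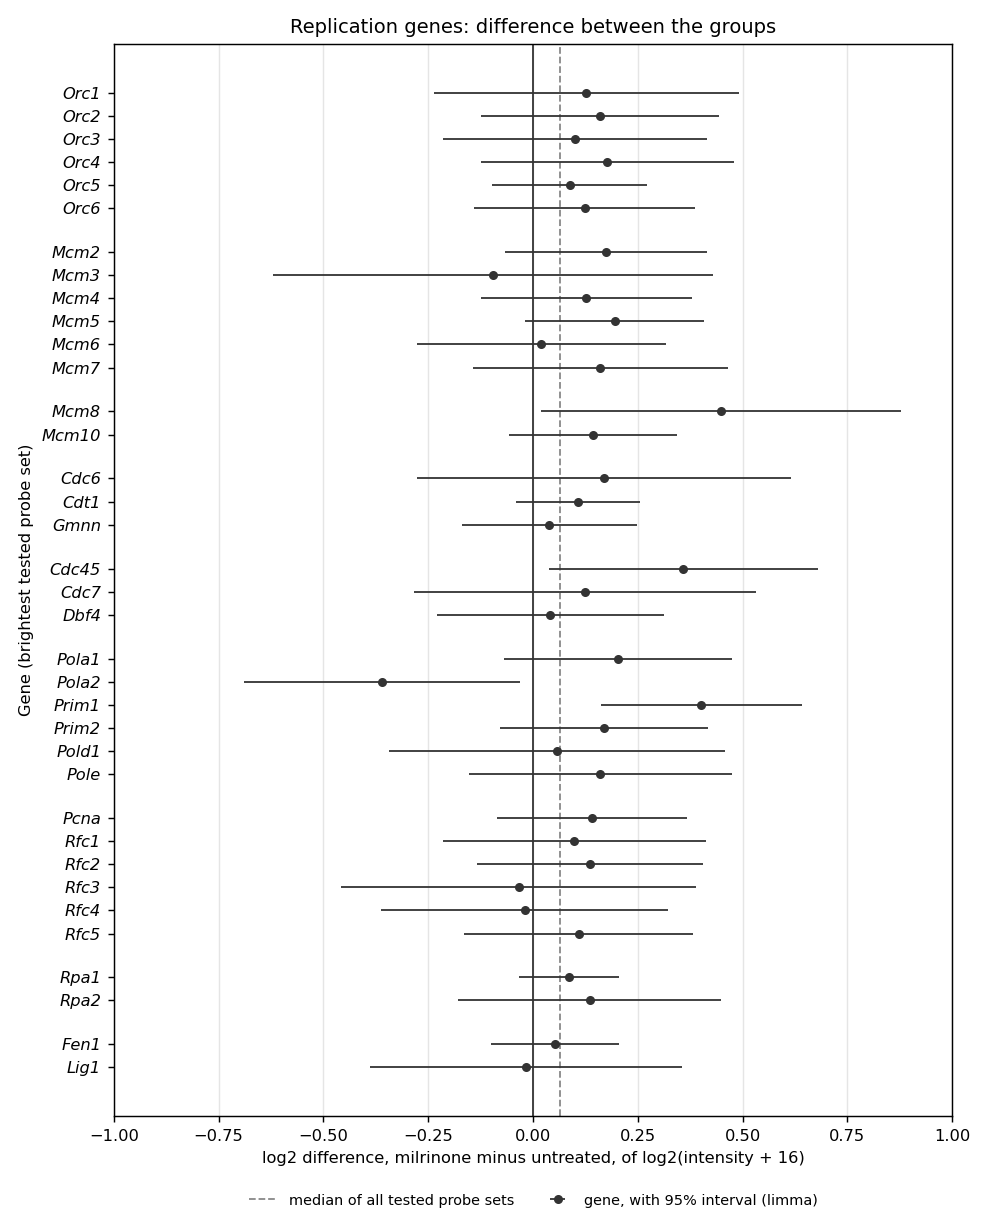
Log2 difference, milrinone minus untreated, of the brightest tested probe set of each of the 36 genes, ordered by role, with bars for the 95% interval of the limma fit. The differences lie between -0.36 and 0.45, and the intervals of Prim1, Cdc45, Mcm8 and Pola2 leave out 0 before adjustment.

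The origin recognition complex marks origins, and messages of its 6 subunits had differences between 0.09 and 0.18, with a median of 0.13. Orc1, the subunit that in somatic cells is tied to the cell cycle, gave intensities of 495, 830.2, 697 and 698 on untreated 1 to 4 and 744, 715, 748 and 722 on milrinone 1 to 4. The low value was untreated 1, the other 7 arrays lay close together, and the difference was 0.13 (95% interval -0.24 to 0.49). Orc2 gave 1014, 1237, 1308 and 1102 in untreated and 1384, 1185, 1384 and 1244 in milrinone samples. Orc3 gave 739.6, 685, 680.0 and 596 in untreated and 736, 837, 714 and 619 in milrinone samples. For both genes the groups overlapped, with differences of 0.16 and 0.10. Orc4, an ATPase subunit, gave 2218, 3032, 3269 and 2596 in untreated and 2877, 3614, 2919 and 3078 in milrinone samples. Its difference was 0.18, the highest of the 6, and the groups overlapped. On a dimmer probe set of Orc4 every milrinone value (404, 476, 427 and 399.5) lay above every untreated value (284, 344, 368 and 396), with a difference of 0.29 and an adjusted p of 0.539. Orc5 gave 5639.5, 6537, 6856 and 5754 in untreated and 6250.3, 6719.5, 6853 and 6454 in milrinone samples. Its interval, -0.10 to 0.27, was the narrowest of the complex. Orc6 gave 3058, 3824, 4128 and 4320.2 in untreated and 4289, 4416, 4209 and 3692 in milrinone samples, with overlapping groups and a difference of 0.12.

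The MCM ring is the helicase that licensing loads, and its 6 subunits had differences between -0.10 and 0.20 with a median of 0.14, 5 of them above 0. Mcm2 gave 2050.3, 2325, 2445 and 2018 in untreated and 2594, 2695, 2381 and 2295 in milrinone samples. Mcm4 gave 4694, 6398, 6752 and 5949 in untreated and 5846, 6916, 6509 and 6533 in milrinone samples. The groups overlapped for both, with differences of 0.17 and 0.13. Mcm5 gave 5156, 5386, 5175 and 5019 in untreated and 7157, 5798, 5533 and 5409 in milrinone samples. Its lowest milrinone value lay just above its highest untreated value, and the difference of 0.20 (95% interval -0.02 to 0.41) had a limma adjusted p of 0.524. A second probe set of Mcm5 overlapped, at 0.07. Mcm6 gave 2103, 3251, 2553 and 2600.5 in untreated and 2434, 2884, 2633 and 2597 in milrinone samples, differing by 0.02 (95% interval -0.28 to 0.32). A second probe set of Mcm6 overlapped too, at 0.28 (95% interval -0.09 to 0.65). Mcm7 gave 5284, 8680.1, 7453 and 6711 in untreated and 7554, 8312, 8309 and 6859 in milrinone samples. Its difference was 0.16, and untreated 1 was the lowest array on each of its 4 probe sets, whose differences ran from -0.09 to 0.32.

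Mcm3 stood apart among the subunits through 1 array. Its brightest probe set gave 1204, 1628, 1719.6 and 1473 in untreated and 1738, 1755, 814 and 1525 in milrinone samples, and the value of 814 on milrinone 3 was the lowest. The difference was -0.10 (95% interval -0.62 to 0.43), and 0.16 without milrinone 3. All 4 tested probe sets of Mcm3 were lowest on that array, at 0.91 to 1.07 below the mean of the other 7 arrays on the log2 scale. Only these 4 of the 65 member probe sets listed on all arrays lay more than 0.5 from the mean of the others on milrinone 3, where 6.05% of all such probe sets did. These probe sets measure 1 RNA sample, so they are not replicates of this low level, and whether their probes overlap was not examined.

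The relatives Mcm8, which acts in recombination, and Mcm10, which joins the helicase at firing, were described apart. Mcm8 gave 167, 217, 199 and 131 in untreated and 214, 210.5, 257 and 316 in milrinone samples. Its group means were 179 ± 37.8 and 249 ± 49.0 (SD, n = 4), the groups overlapped, and its difference of 0.45 (SE 0.19) was the highest of the 36 genes, with a limma p of 0.0424 and an adjusted p of 0.510. Mcm10 gave 4797, 5036, 4817 and 4185 in untreated and 5669, 4692, 5155 and 5286 in milrinone samples, with overlapping groups and a difference of 0.14.

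**Figure D2:**
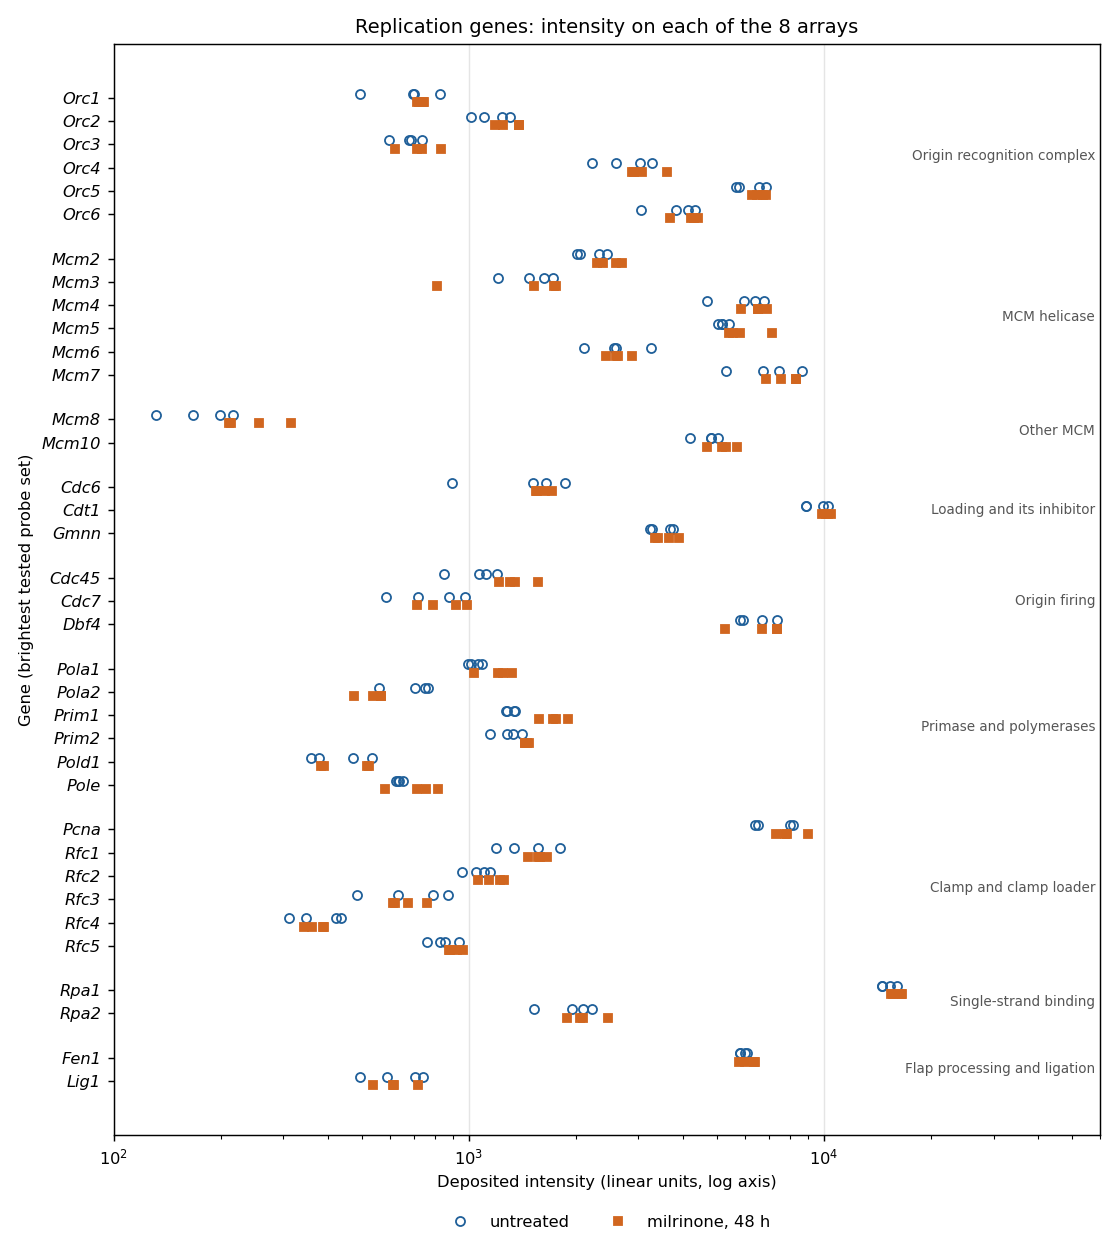
Deposited intensity on each of the 8 arrays (log axis) of the brightest tested probe set of every gene, ordered by role, with untreated and milrinone samples marked apart. Positions are not comparable between genes, since each probe set binds with its own strength. For most genes the groups lie over each other, and the single low milrinone value of Mcm3 is milrinone 3.

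Loading factors and their inhibitor were listed throughout. Cdc6, the ATPase that joins the origin recognition complex before the ring is loaded, gave 899, 1649, 1514 and 1861 in untreated and 1713, 1636, 1541 and 1554 in milrinone samples, differing by 0.17 (95% interval -0.28 to 0.61). The low value is untreated 1, and without that array the difference was -0.05. Cdt1, which brings the MCM ring to the origin, gave 8884, 9909.6, 10228 and 8869.6 in untreated and 10482, 9839, 10286 and 10122 in milrinone samples. Gmnn, the inhibitor of Cdt1, gave 3232, 3679, 3743 and 3285 in untreated and 3652, 3908, 3343 and 3415 in milrinone samples. Messages of the loader and of its inhibitor were thus both present in every sample, with differences of 0.11 (95% interval -0.04 to 0.25) and 0.04 (-0.17 to 0.25).

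Among the factors that fire licensed origins, Cdc45 had the largest difference. It gave 849, 1067, 1121 and 1200.4 in untreated and 1303, 1568, 1349 and 1214 in milrinone samples. Every milrinone value lay above every untreated one, though 1214 and 1200.4 are close. The means were 1059 ± 150.5 and 1358 ± 150.5 (SD, n = 4), and the difference of 0.36 (SE 0.14, 95% interval 0.04 to 0.68) had a limma p of 0.0315 and an adjusted p of 0.495. Without untreated 1 it was 0.26. Cdc7, the firing kinase, gave 721, 877, 978 and 583 in untreated and 714, 792, 986 and 917 in milrinone samples. Dbf4, its activating subunit, gave 5789, 7392, 6699.9 and 5918 in untreated and 5266, 7354, 7364 and 6668 in milrinone samples. Both overlapped, with differences of 0.12 and 0.04.

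Primase and polymerase alpha lay on both sides, with Prim1 at 0.40 and Pola2 at -0.36, the lowest of the 36 genes. Prim1, the catalytic subunit of primase, gave 1272, 1341, 1348 and 1283 in untreated and 1901, 1725, 1578 and 1754 in milrinone samples. The groups were clearly separate, at 1311 ± 38.9 and 1739 ± 132 (SD, n = 4). The difference of 0.40 (SE 0.11, 95% interval 0.16 to 0.64) had the smallest limma p of the members, 0.00377, and missed the threshold after adjustment over all 16288 probe sets, at 0.412. A second probe set of Prim1 gave 1128, 1404, 1234 and 1389 in untreated and 1389, 1673, 1317 and 1429 in milrinone samples, with overlapping groups and a difference of 0.17 (95% interval -0.11 to 0.45). Prim2, the regulatory subunit, gave 1147, 1279, 1329 and 1414 in untreated and 1435, 1480.0, 1459 and 1434 in milrinone samples, which did not overlap, with a difference of 0.17 and an adjusted p of 0.599. Its second probe set went the other way, at -0.11, and overlapped.

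Polymerase alpha extends the primers that primase lays. Its catalytic subunit Pola1 gave 1012, 1088, 993 and 1062 in untreated and 1034, 1323, 1206 and 1245 in milrinone samples, differing by 0.20 with overlap. The accessory subunit Pola2 gave 559, 752, 706 and 767 in untreated and 567, 566, 476 and 538 in milrinone samples. Its means were 696 ± 95.1 and 536 ± 42.8 (SD, n = 4), and only the low value of untreated 1 lay within the milrinone range. The difference of -0.36 (SE 0.15, 95% interval -0.69 to -0.03) had a limma p of 0.0353 and an adjusted p of 0.495, and was -0.46 without untreated 1. Pold1, the catalytic subunit of polymerase delta, gave 533, 471, 379 and 360.2 in untreated and 524, 384, 389.9 and 516 in milrinone samples. Pole, that of polymerase epsilon, gave 653, 634, 623 and 633 in untreated and 759, 817, 715 and 579 in milrinone samples. The groups overlapped for both, with differences of 0.06 and 0.16.

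The clamp Pcna holds polymerases on DNA, and it gave 6401, 7992, 8148 and 6508 in untreated and 7307, 8987, 7862 and 7781 in milrinone samples, differing by 0.14 (95% interval -0.09 to 0.37). The loader subunits differed by -0.03 to 0.14, and the groups overlapped for each. Rfc1, the large subunit, gave 1193, 1808, 1569.7 and 1343 in untreated and 1656, 1562, 1462 and 1587 in milrinone samples. Rfc2 gave 954, 1103, 1049 and 1145 in untreated and 1252, 1227, 1059 and 1137 in milrinone samples. Rfc3 gave 485, 876, 633 and 795 in untreated and 610.4, 763, 619 and 675 in milrinone samples. Among these small subunits of the loader, Rfc3 was lowest on untreated 1, as Rfc2 was. Rfc4 gave 423, 435, 347 and 311 in untreated and 391, 362, 343 and 387 in milrinone samples. Rfc5 gave 829.9, 938, 856 and 761 in untreated and 880.0, 960.3, 883 and 923 in milrinone samples. A dimmer probe set of Rfc4 was the only one of the members with every milrinone value (143, 148, 211 and 199) below every untreated value (213, 211, 226 and 260.5), where the 2 values printed as 211 differ only in their decimals. Its difference was -0.36 (95% interval -0.74 to 0.01), against -0.02 on the brightest probe set of Rfc4.

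RPA coats the single strands that the helicase opens. Rpa1, its large subunit, gave 14558, 16079, 15305 and 14557 in untreated and 16575, 15447, 15639.9 and 16510.0 in milrinone samples, differing by 0.09 (95% interval -0.03 to 0.20). Rpa2 gave 1523, 2216, 2090.1 and 1948 in untreated and 2048, 2470.2, 1889 and 2096 in milrinone samples, with overlap and a difference of 0.13. Okazaki fragments are trimmed by Fen1 and joined by Lig1. Fen1 gave 5794, 6048, 5974 and 5788 in untreated and 6336, 5768, 6405 and 5999 in milrinone samples. Lig1 gave 493, 707, 589 and 744 in untreated and 611, 535, 721 and 617 in milrinone samples. Their groups overlapped, with differences of 0.05 (95% interval -0.10 to 0.21) and -0.02 (-0.39 to 0.35).

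Genes with and without an E2F word in the promoter covered overlapping ranges of differences. The 13 genes with a word had differences from -0.10 to 0.45 with a median of 0.11, and the 18 with a promoter but no word had differences from -0.36 to 0.40 with a median of 0.12. Prim1, Cdc45 and Pola2 are among the genes without a word, and Mcm8 is among those with one.

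Probe sets of 1 gene did not always go the same way. Of 22 genes with several tested probe sets, 15 had 1 sign, and the signs differed in Orc2, Mcm2, Mcm7, Prim2, Pold1, Rfc1 and Rpa2. The second probe set was at -0.02 in Mcm2, -0.08 in Pold1 and -0.01 in Rpa2, while 1 of the 4 of Mcm7 was at -0.09. In Orc2 and Rfc1 the negative sign came with a high value on untreated 4. The third probe set of Orc2 gave 405 on untreated 4 and 129.5, 191 and 216 on the other untreated arrays, with 243, 178, 206 and 158 in milrinone samples, differing by -0.15. That of Rfc1 gave 1368 on untreated 4 and 479.8, 610.0 and 695 on the other untreated arrays, with 623, 653, 626 and 588 in milrinone samples, differing by -0.22. On untreated 4 the 3′ signal divided by the 5′ signal was 6.87 for the Actb control, the lowest of the 8 arrays, and 7.68 for the Gapdh control, the highest of the untreated arrays. The part of RNA quality in these values was not tested. Of the brightest probe sets, 7 have the suffix s or x, which the maker gives to probe sets that may bind more than 1 transcript, namely those of Mcm2, Mcm3, Mcm5, Mcm7, Pold1, Rfc4 and Fen1.

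**Figure D3:**
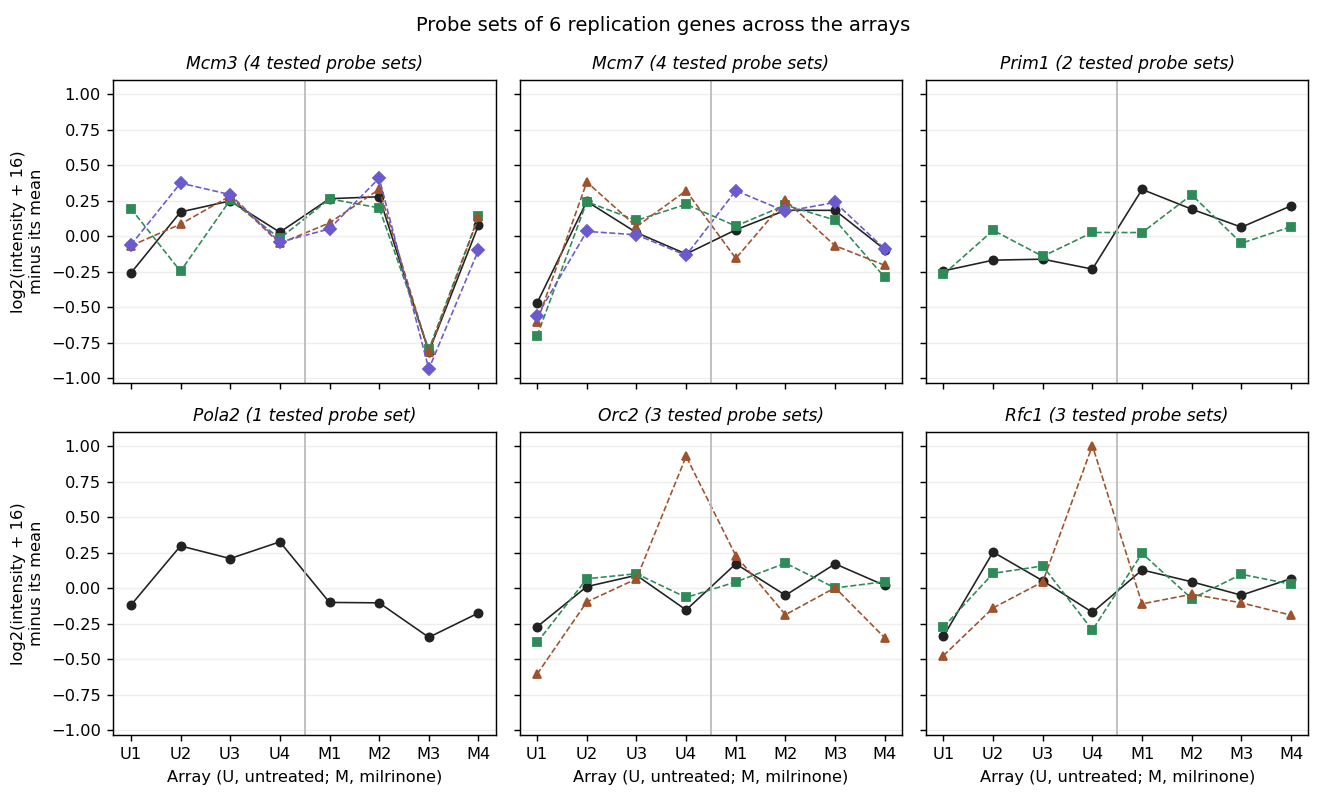
log2(intensity + 16) on each array minus the mean of its probe set, for all tested probe sets of 6 genes, with the brightest in black and untreated (U) and milrinone (M) arrays split by a line. The 4 probe sets of Mcm3 are all lowest on milrinone 3, those of Mcm7 on untreated 1, and 1 probe set each of Orc2 and Rfc1 is high on untreated 4.

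Untreated 1 was the low array for most member probe sets. Of the 65 member probe sets listed on all 8 arrays, 41 were lowest on untreated 1 (63.1%), against 39.6% of the 14391 such probe sets in all, and 12 were lowest on untreated 4 (18.5%), against 22.3%. Over the 36 genes, the median deviation from a gene's mean on the log2 scale was -0.23, 0.06, -0.01 and -0.11 on untreated 1 to 4 and 0.07, 0.13, 0.06 and 0.04 on milrinone 1 to 4. Over all 65 member probe sets it was -0.27 on untreated 1 and -0.05 on untreated 4, and over all 14391 it was -0.17 and -0.05. On untreated 4 the 65 member probe sets were thus no lower than the rest, while the brightest probe sets of the 36 genes, at -0.11, were lower. Of these 36, 11 were lowest on untreated 4 (30.6%), against 22.3% of all. Untreated 1 was also the array with the most listed follicle cell markers, and all 5 granulosa, cumulus and theca probe sets listed on every array were highest there. Of the 15 oocyte marker probe sets, 7 were lowest on untreated 1. The part of these cells' RNA in the members' lower values there was not tested. Milrinone 2 was the highest array for 23 of the 65 (35.4%), against 15.1% of all. Neither trait was particular to the members. The other replication genes described below had 60 probe sets listed on every array. Of these, 35 were lowest on untreated 1 (58.3%), with a median deviation of -0.27 there, and 16 were highest on milrinone 2 (26.7%).

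**Figure D4:**
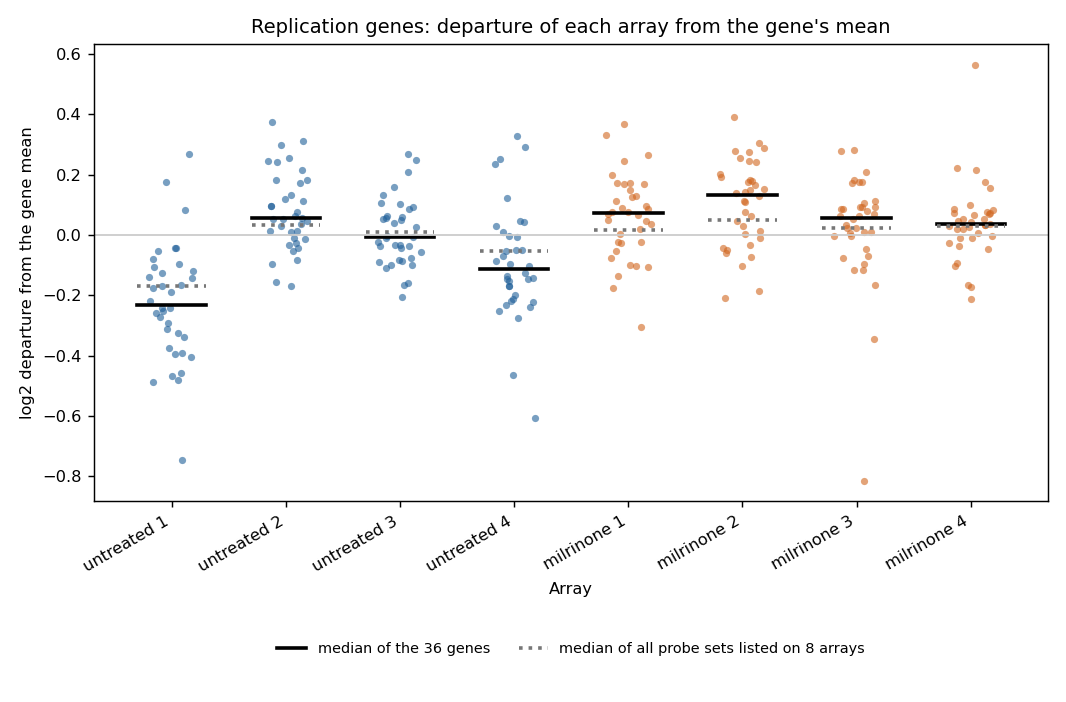
Departure of each array from the gene's mean over 8 arrays on the log2(intensity + 16) scale, with 1 point for each of the 36 genes (brightest tested probe set). Solid bars mark the median of the members and dotted bars that of all probe sets listed on every array, and untreated 1 and untreated 4 are the low arrays, at -0.23 and -0.11 for the members.

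Other genes of replication were set beside the members. Of a list of 50, covering the GINS complex, further polymerase subunits, fork protection, nucleotide supply, chromatin assembly, E2F factors and pocket proteins, 48 had a probe set of their own and 44 could be tested. None passed the limma adjusted p of 0.05, and 1 of 44 passed the unadjusted threshold (2.27%), against 9.82% of all tested genes. Differences lay above 0 in 37 of 44 (84.1%), against 62.9% of all tested genes, with a median of 0.14 against 0.07. Gins1, a subunit of the GINS complex that completes the helicase with Cdc45, gave 1352, 2078, 2070.2 and 1738 in untreated and 2261, 2209.7, 2468 and 2263 in milrinone samples. Its groups did not overlap, and its difference of 0.36 (95% interval 0.04 to 0.68) had a limma p of 0.0303 and an adjusted p of 0.495. The next by unadjusted p were the checkpoint mediator Clspn at 0.29, the polymerase subunits Pole2 at 0.25 and Pold3 at 0.26, the fork factor Donson at 0.22 and Wdhd1, which ties polymerase alpha to the helicase, at 0.26. On the brightest probe set of each, the groups overlapped and the adjusted p-values ran from 0.516 to 0.568. On a dimmer probe set of Pold3 every milrinone value (703, 662, 664 and 684) lay above every untreated value (460.1, 633, 644 and 378), with a difference of 0.38 and a limma adjusted p of 0.517. By gene, the groups did not overlap, with milrinone higher, in 2 of 44, Gins1 and Gins3, against 488 of all 9454 tested genes. Gins3 gave 359, 439.1, 407 and 409 in untreated and 439.5, 445, 538 and 495 in milrinone samples. Its difference was 0.24, with a limma adjusted p of 0.569.

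Of the 8 E2F factors in that list, 5 could be tested, with differences of -0.09 for E2f1, 0.14 for E2f2, 0.20 for E2f4, 0.01 for E2f5 and 0.12 for E2f8, none past the threshold. E2f3, E2f6 and E2f7 were listed on too few arrays. E2f6 was listed on 4 untreated arrays, at 184, 88.3, 79.4 and 61.3, and on 1 milrinone array, at 82.3. E2f7 was listed on 2 untreated and 0 milrinone arrays, and a probe set of E2f3 on at most 1 untreated or 2 milrinone arrays. Tyms, which makes thymidylate for DNA synthesis, could not be tested either, with 2 of its 4 probe sets listed on no array and the other 2 on 1 array each. The other markers of proliferating cells were listed in both groups. On their brightest probe sets the differences were 0.05 for Mki67, 0.02 for Top2a, 0.19 for Ccna2, 0.08 for Rrm2 and -0.08 for Tk1. The dimmer tested probe sets of Rrm2 lay at -0.07 and -0.13, and that of Ccna2 at 0.05.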

How the data were processed

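The series matrix holds the intensity of each probe set on a linear scale, as deposited by the authors. For the image software, the scaling and the reason for empty cells, the sources used here give nothing. Symbols came from the platform annotation and were brought up to date by Entrez identifier with RefSeq's gene table for GRCm38.p6. No genome was used, and promoters came from a RefSeq table of that build.

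Values were analysed as log2(intensity + 16) with empty cells left empty. A probe set was tested where each group listed it on 3 or 4 of its 4 arrays, which 16288 did. The two-sided test was limma 3.58.1 (R 4.3.3) with lmFit and a trend in eBayes, Benjamini-Hochberg adjustment over all 16288 and a threshold of 0.05. The script was tested on simulated data. Python 3.11.15 and matplotlib 3.10.9 made the tables and plots. Precision is limited by the number of arrays: the standard error had a median of 0.17 over all tested probe sets and 0.13 over the 36 genes.

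Every array's value is given for the brightest tested probe set of each member. Other probe sets are named where their sign or listing goes against it, and so are the 6 other replication genes with the smallest unadjusted p, by their brightest probe set. The separate probe sets of Orc4, Rfc4, Mcm5, Mcm6, Mcm7, Prim1 and Pold3 were named after their values were seen. So were Gins3, E2F factors, Tyms and the other markers of proliferating cells. The members and lists were chosen with earlier results of these data known. Alternatives were the pseudocount, quantile normalization, centring on the median or on ribosomal protein genes, the listing rule, the trend, array weights, a replicate block, each array left out, where a shortened group needed all but 1 of its remaining arrays, and the mean of a gene's probe sets. Background correction and scan batches could not be varied from the processed values used here.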

Additional observations from a re-analysis of the deposited data

Results flagged for a closer look

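In 3 cases, 1 array lay far from the other 3 of its group, by a gap that, as a share of the group's range, exceeded Dixon's critical value at 95% for 4 samples. A dimmer probe set of Mcm3 gave 411 on milrinone 3 and 801 to 874 on the other milrinone arrays, a share of 0.884. A dimmer probe set of Mcm6 gave 985 on untreated 1, where its group otherwise gave 1554 to 1630.3, a share of 0.904. A dimmer probe set of Mcm7 gave 585 on untreated 1, where its group otherwise gave 1039.7 to 1141, a share of 0.860. Chance flags about 1 in 20 groups, which comes to 6.5 of the 130 groups examined. No share of flags over all probe sets was set beside this count. The flags of Mcm6 and Mcm7 fell on untreated 1, the lowest array for 39.6% of all 14391 probe sets listed on every array. They need not be particular to these genes. Milrinone 3, the array of the Mcm3 flag, was lowest for 5.73% of all such probe sets.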

How the results depend on the processing

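No member probe set passed the adjusted limma threshold under any of the 18 refits, and the smallest adjusted p was 0.195, for Pola2 with array weights. Prim1, Cdc45, Mcm8 and Pola2 were among the 23 of 36 genes that kept their sign under all 19 alternatives. None of the other replication genes passed either. Over the whole table, 19 probe sets passed, 52 with centring on ribosomal proteins, 12 among those listed on all 8 arrays, 93 with array weights, and 8 (without milrinone 3) to 69 (without untreated 1) when 1 array was left out. The members' median, 0.13 with 31 of 36 genes above 0, was 0.34 with centring on ribosomal proteins and 0.0487 with array weights, which left 27 above 0. Signs turned for 13 genes, whose differences ran from -0.10 (Mcm3) to 0.17 (Cdc6), and the cause was not tested. Mcm6 was -0.0218 with quantile normalization and -0.0094 with median centring. Centring on ribosomal proteins gave 0.12 for Mcm3, 0.18 for Rfc3, 0.19 for Rfc4 and 0.20 for Lig1. Array weights gave -0.0624 for Mcm6, -0.0511 for Gmnn, -0.0052 for Dbf4, -0.0475 for Rfc1, -0.0154 for Rpa2 and 0.0201 for Lig1. The mean of all probe sets gave -0.012 for Pold1. Leaving out 1 array gave -0.0137 to 0.23 for Orc1, -0.0807 to 0.13 for Mcm6, -0.0515 to 0.29 for Cdc6, -0.0112 to 0.15 for Dbf4, -0.11 to 0.0485 for Rfc4, -0.19 to 0.0853 for Rfc3, -0.13 to 0.0641 for Lig1, -0.0242 to 0.16 for Pold1, -0.0104 to 0.23 for Cdc7, -0.0039 to 0.0744 for Gmnn and -0.20 to 0.16 for Mcm3. The labels do not say whether the replicate numbers pair the samples. Same-numbered deviations correlated at 0.03, -0.20, -0.02 and -0.27, and 0 of 4 matched best with their own number. With 4 arrays a group, these values cannot settle whether the samples were paired. The replicate block called 0 members and 13 probe sets over the whole table.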
